A study of Mus musculus with 10 samples.

Results

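Transcript levels are described for wild-type mouse keratinocytes in low calcium medium, on the 5 arrays whose sample titles end in WT-und, of 10 arrays in all. The other 5 arrays carry Sgpp1-/- cells and were not used, so no genotypes are compared. All 5 samples are labelled Sgpp1+/+, the normal state of the gene for sphingosine-1-phosphate phosphatase 1, and no other allele and no agent is labelled for them. Keratinocytes form the epidermis, and these were primary cells from mouse skin, held for 3 to 4 days before harvest in EMEM that contained 0.05 mM calcium and, as serum, 8% fetal calf serum. Strain, age and sex are not given in the labels, and neither is whether each sample stands for an animal or culture of its own, so the labels do not say how much of the spread between arrays is technical. The arrays are Affymetrix Mouse Genome 430 2.0, on which each probe set reports 1 transcript or a few related ones, and they are called WT 1 to WT 5 by the numbers in their labels. Errors given after ± are the SD over these 5 arrays.

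Basal keratinocytes sit on the basement membrane and hold to it through hemidesmosomes, which join integrins and collagen XVII to the keratin filaments inside the cell. They express the keratin pair Krt5 and Krt14 under the transcription factor p63, divide, and give rise to spinous cells with Krt1 and Krt10 and then to the cornified layer, whose proteins are crosslinked into an envelope. In culture, low calcium keeps cadherin junctions from assembling and the cells in a basal, dividing state, and a rise in calcium starts stratification.

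The markers of basal keratinocytes were among the brightest signals on every array. Krt5 read 12.76, 12.86, 12.74, 12.84 and 12.72 on WT 1 to WT 5 on the log2 scale of the deposited values, which placed it 11th by mean signal of 18193 genes. Krt14, its filament partner, read 12.48, 12.63, 12.78, 12.82 and 12.77 and ranked 15th. Their ranges overlap, so the order of these signals is within the spread between arrays. Col17a1, the collagen XVII of the hemidesmosome, read 11.75, 11.26, 11.72, 11.42 and 11.24 and ranked 145th. Trp63, the gene of p63, read 11.26, 10.88, 10.80, 10.68 and 10.03 and ranked 360th, lowest on WT 5. All 4 markers of the labelled cell type lay in the brightest 2% of genes. The 4 probe sets of Trp63 did not read alike, with means of 10.73, 9.11, 7.92 and 5.79.

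Because these values carry no call of presence, a background reference was taken from 56 genes of other organs, such as liver, pancreas, retina and testis. Their median signal was 3.81, and the 95th percentile, 5.83, served as the reference. On the mean of the 5 arrays 8854 genes, 48.7% of all, read above it. On every array 7680 genes did so, 8214 read below it on every array, and 2299 lay above it on some arrays only. Signals over 10 were reached by 793 genes and over 12 by 78. Genes of other organs above the reference were Prm1 at 7.25, Myl7 at 6.996 and Mbp at 6.25, so a single gene somewhat above 5.83 may still read background. A signal also depends on how well its probes bind: among the 9010 genes with several probe sets, the brightest exceeded the next by a median of 0.92 log2 units. Orders and shares given here are therefore those of signals, not of transcript numbers. Counts of list members above the reference are to be read beside the 48.7% of all genes.

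**Figure D1:**
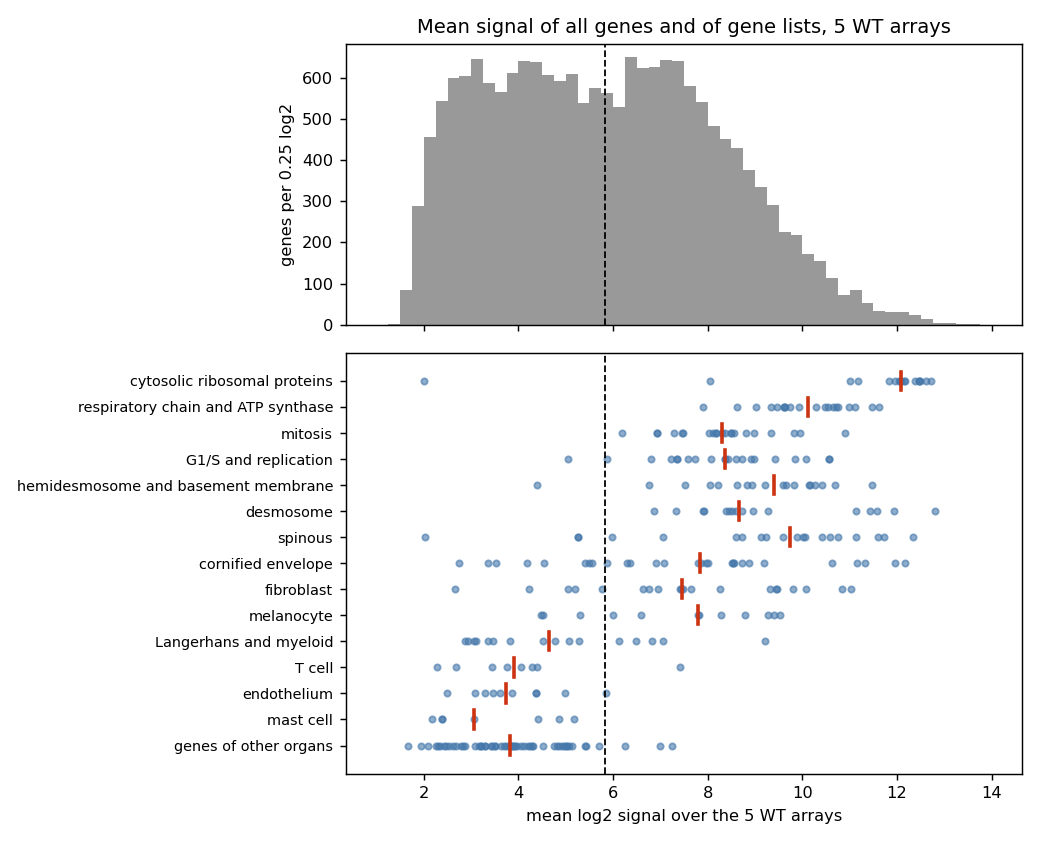
Upper panel, number of genes (vertical axis) by mean log2 signal over the 5 WT arrays (horizontal axis), with the background reference of 5.83 dashed. Lower panel, each point is the mean signal of 1 gene of a list, with the list's median as a red bar: ribosomal proteins have a median of 12.08, and mast cell, endothelium and T cell lists lie mostly left of the reference.

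The arrays correlated with each other at 0.953 to 0.990 over all probe sets, a description over values that share most of their variation between genes. WT 1 stood apart. Its values had an SD over probe sets of 2.18, against 2.35 to 2.38 on the other arrays, and its genes of other organs had a median of 4.03, against 3.68 to 3.76. Poly-A control probe sets averaged 11.34 on WT 1, 10.72 on WT 2 and 10.03 to 10.19 on the other three, and Gapdh probes at the 3' end exceeded those at the 5' end by 1.72 on WT 1 and by 1.80 to 2.01 on the others. Of the 8854 genes above the reference, 45.3% were lowest on WT 1. Leaving this array out lowered the median SD of genes above the reference from 0.306 to 0.221. The reference was then redrawn without WT 1, which gave 9060 genes above it. Xist, the RNA that coats the inactive X chromosome, read 12.16, 11.66 and 12.10 on WT 1, WT 2 and WT 4 but 2.51 on WT 3 and 4.46 on WT 5. The Y-linked Kdm5d read 8.53 on WT 3 and 8.63 on WT 5 and at most 3.84 elsewhere, and Eif2s3y (7.46 and 8.04 there, at most 3.49 elsewhere) and Uty behaved alike. The 5 arrays are therefore not repeats of 1 RNA sample. Genes of fibroblasts were high on WT 3 and WT 4 and those of melanocytes on WT 5. In such bulk samples fewer cells of a type and less RNA per cell cannot be told apart.

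The 25 brightest genes included RNA-binding, ribosomal, cytoskeletal and junction genes. The brightest gene with a full name was Malat1, a nuclear long noncoding RNA, at 13.47 ± 0.09, after 1 clone name. Hnrnpab, an RNA-binding protein, followed at 13.40 ± 0.10, then the ribosomal protein Rpl41 at 13.15 ± 0.11 and Vdac1, a channel of the outer mitochondrial membrane, at 13.14 ± 0.07. Tpm1, a tropomyosin of actin filaments, read 13.10 ± 0.15. Dsp, desmoplakin, which ties desmosomes to keratin, stood next above Krt5 at 12.80 ± 0.12. The 7 ribosomal proteins among them included Rpsa at 13.11 ± 0.27 and Rps29 at 12.89 ± 0.18. Ahnak, Grn, Eef1a1, Actb and Tmsb10 also belonged to this group, with means from 12.55 to 12.70.

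In the type II keratins, which pair with type I keratins to form filaments, 9 of 17 measured genes read above the reference, close to the 48.7% of all genes. Krt5 gave 45.7% ± 4.24 of their summed linear signal and Krt6a, a keratin of wounded and cultured epidermis, 34.6% ± 4.01. Krt6a read 11.96, 12.31, 12.51, 12.59 and 12.52. Krt1, the spinous keratin, read 10.28, 9.61, 11.21, 10.41 and 8.80, a share of 3.02 to 13.8%, highest on WT 3 and lowest on WT 5. Krt6b read 7.65, 8.58, 10.21, 10.09 and 9.50 and was the more variable of the Krt6 pair. Krt2, of the upper epidermis, averaged 2.46, and the hair follicle keratins Krt71, Krt72 and Krt73 averaged 3.56, 3.44 and 2.28, all below the reference.

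Among the type I keratins 5 of 16 read above the reference, beside 48.7% of all genes. Krt14 gave 39.3% ± 1.91 of the signal, Krt16 29.7% ± 4.06 and Krt17 23.4% ± 1.79. Krt16, the partner of Krt6 in wounds, read 12.17, 11.85, 12.51, 12.47 and 12.39. Krt17 read 11.93, 12.02, 11.95, 11.95 and 11.87, an SD of 0.05 and a range that lies within that of Krt16. Krt10, the partner of Krt1, read 9.16, 9.21, 10.16, 9.26 and 7.81, so the spinous pair was highest on WT 3 and lowest on WT 5 in both members. Krt15, a keratin of basal and follicle stem cells, averaged 5.58 ± 0.73, just under the reference. With the median over the probe sets of a gene the shares of Krt5 and Krt14 were 50.9% and 44.2%, and with the sum over all probe sets 31.8% and 53.7%. Keratins are close in sequence, and the probe set that stands for Krt14 is of the kind that can bind related transcripts.

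**Figure D2:**
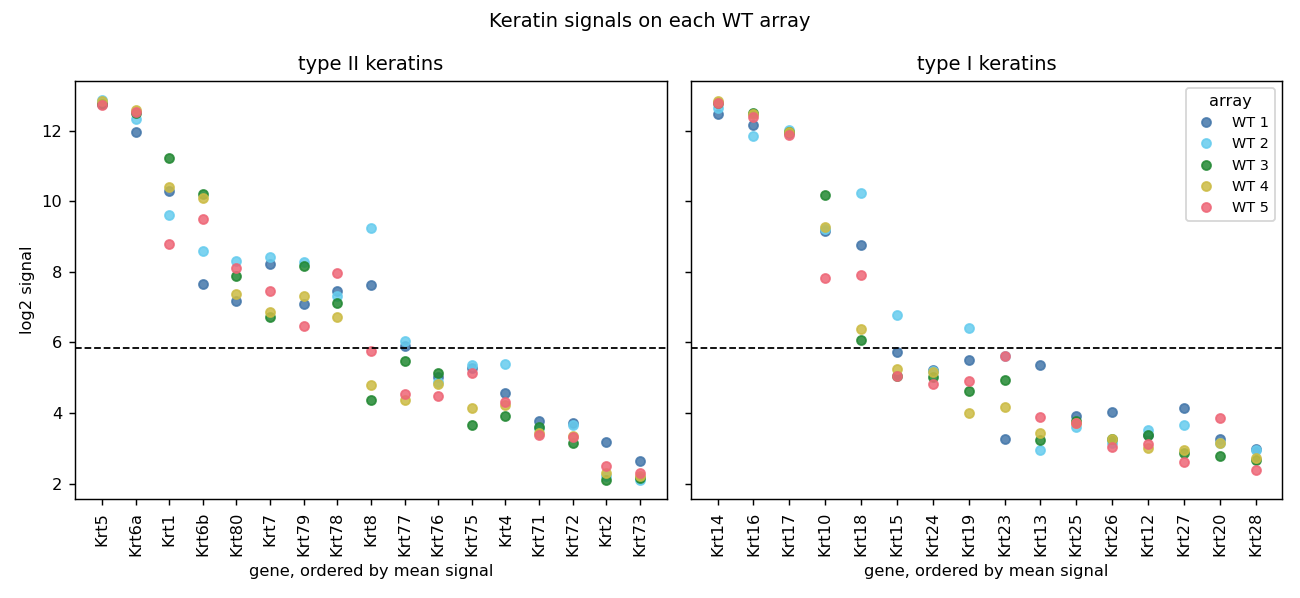
Log2 signal (vertical axis) of each type II keratin (left) and type I keratin (right), ordered by mean, with 1 point for each of the 5 WT arrays and the background reference of 5.83 dashed. Krt5, Krt14 and Krt17 lie close together on all arrays, whereas Krt8 runs from 4.37 on WT 3 to 9.24 on WT 2.

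Genes that fix keratinocytes to the basement membrane were nearly all read above background: 17 of 18 measured members of the hemidesmosome and basement membrane list exceeded the reference, with a median level of 9.40. Dst, the plakin of the hemidesmosome, read 10.68 ± 0.21, Itgb4 10.14 ± 0.23 and Itga6 9.82 ± 0.14, the last 2 being the integrin pair of that junction. Itga6 ran from 9.67 to 9.96 and Itgb4 from 9.82 to 10.43. The laminin genes Lama3 and Lamb3 read 10.41 ± 0.34 and 9.65 ± 0.31. Nid2, nidogen 2, was the member below the reference, at 4.39 ± 1.10.

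Of 24 integrin subunits 11 read above the reference, a share near the 48.7% of all genes. Itgb1, the shared partner of many alpha subunits, gave 21.5% ± 2.38 of the summed signal, and Itgav gave 21.2% ± 5.96. Itgav ran from 9.56 on WT 1 to 11.16 on WT 3. Itga3, the laminin receptor partner of Itgb1, was highest on WT 5 at 9.89 and lowest on WT 3 at 8.05. Itgb3 read 3.90, 4.80, 7.56, 8.03 and 4.17, above the reference on WT 3 and WT 4 and below it on the others. Its other probe set read 3.59, 3.17, 4.23, 3.48 and 2.92, below the reference on every array. The leukocyte subunits Itgal, Itgax, Itgae and Itgam averaged 2.92 to 3.93.

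Desmosome genes had a nearly level profile: the list's median deviation from each gene's mean ran over 0.06 log2 units between arrays, and over 0.34 with the mean over members in place of the median. Without WT 1 the range of the medians was 0.12 and without WT 5 it was 0.13. All 16 of 16 members read above the reference on every array. Jup, plakoglobin, which serves desmosomes and adherens junctions, read 11.58, 11.59, 11.57, 11.58 and 11.58, the smallest SD (0.01) of the genes above the reference. Perp, Dsc3 and Pkp1 read 11.93 ± 0.10, 11.43 ± 0.32 and 11.12 ± 0.06. Dsc2, a desmosomal cadherin, was the 1 member with an SD of at least 1 (1.14), reading 5.93 on WT 1 and 8.02 to 8.69 elsewhere. Dsg1b and Cdsn varied as well, with 0.377 to 2.02% and 0.804 to 3.27% of the list's summed linear signal. In the adherens junction list Ctnnb1, beta-catenin, read 12.23 ± 0.28 and Cdh1, E-cadherin, 10.63, 11.17, 11.67, 11.41 and 11.71. Cdh3, P-cadherin of basal cells, ran from 7.81 to 8.42. Cdh2, N-cadherin of mesenchymal cells and melanocytes, read 4.68, 4.65, 7.35, 7.39 and 6.56.

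Tight junctions seal the upper epidermis, and 11 of 20 of their genes read above the reference, again near the 48.7% of all genes. Cldn12, Cldn1 and Cldn4 were the brightest claudins, at 10.71 ± 0.15, 9.87 ± 0.45 and 9.39 ± 0.54. Cldn7 read 8.52, 9.05, 6.19, 7.06 and 8.04, lowest on WT 3. Cldn10 and Cldn11 averaged 2.59 and 1.83. Of the gap junction genes, Gja1 (connexin 43 gene) read 10.76 ± 0.46, and 5 of 13 members were above the reference, beside 48.7% of all genes.

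Epidermal transcription factors were broadly present, with 19 of 22 above the reference. After Trp63 came Id4 and Tfap2c at 10.003 and 9.996, then Tfap2a, an AP-2 factor, at 9.64 ± 0.29. Klf4, a driver of barrier formation, read 9.60 ± 0.28, and Sox9, of the follicle and basal cells, 9.53 ± 0.29. Gata3 read 7.20 ± 0.13. The p53 relative Trp73 averaged 4.95 and Sox2 averaged 2.22, both below the reference. In the Myc network 9 of 10 members were above it: Myc itself, a driver of growth, read 11.19, 11.07, 10.79, 10.90 and 11.33, and Mycl averaged 5.15.

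Ligands of the Notch pathway, through which neighbouring cells signal differentiation, were led by Jag1 at 11.14 ± 0.35 and Dll1 at 8.98 ± 0.43, with Dll3 and Dll4 at 3.19 and 3.34. Among the receptors Notch2 read 10.68 ± 0.48 and Notch1 read 9.88, 9.91, 10.70, 10.62 and 10.68, while Notch4 averaged 2.80. The target Hes1 read 6.25 ± 0.31 and Hey1 4.85 ± 0.54. In all, 10 of 16 members exceeded the reference, beside 48.7% of all genes.

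Of the EGF family, whose ligands drive keratinocyte growth, 8 of 13 members were above the reference, beside 48.7% of all genes. The receptors Erbb3, Egfr and Erbb2 read 9.23 ± 0.39, 8.17 ± 0.52 and 7.74 ± 0.12, and Erbb4 averaged 2.74. Ligands above the reference were Epgn at 7.67 ± 0.40, Hbegf at 7.63 ± 0.09, Ereg at 6.40 ± 0.78 and Tgfa at 6.27 ± 0.40, whereas Egf itself averaged 3.39 and Btc 4.91. Fgfr2, whose epithelial form receives FGF7 and FGF10, gave 53.3% ± 8.60 of the FGF receptor signal and Fgfr4 averaged 4.71. Of the TGF-beta list 15 of 16 members were above the reference, led by the receptors Bmpr1a at 9.75 ± 0.24 and Tgfbr2 at 9.55 ± 0.37. Its ligand Tgfb3 read 5.88, 5.45, 7.71, 7.69 and 4.79, highest on WT 3 and WT 4. Wnt4 was the brightest of 14 Wnt ligands at 8.24 ± 0.59. Wnt5a read 4.87, 6.28, 8.18, 8.35 and 4.84, again highest on WT 3 and WT 4.

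Dividing cells were well represented: 21 of 21 mitosis genes and 20 of 21 genes of the G1/S phase and replication read above the reference. Mki67, the proliferation marker, read 11.004, 10.75, 10.84, 10.95 and 10.92. Rrm2, of deoxynucleotide synthesis, and Pcna, the polymerase clamp, both averaged 10.57. Ccnd2 gave 51.7% ± 5.44 of cyclin signal, Ccna2 19.7% ± 2.38 and Ccnd1 18.1% ± 4.44. Among inhibitors of cyclin-dependent kinases Cdkn1a (p21 gene) gave 71.0% ± 5.61 of the signal, at a level of 10.78 ± 0.41, and Cdkn2a averaged 4.61. On WT 5 17 of 21 G1/S genes had their highest value, beside 26.8% of the genes above the reference. In the mitosis list 15 of 21 did. Mcm4, of the replicative helicase, read 6.96, 8.47, 8.71, 8.47 and 9.21, and Cdc6, which loads it, 6.39, 6.74, 6.18, 6.70 and 7.95. The range of the G1/S profile was 0.82 over the 5 arrays and 0.44 without WT 5.

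Genes of the spinous layer were present at low calcium, 17 of 20 above the reference with a median level of 9.74. Fabp5, a fatty acid carrier, read 12.35 ± 0.25, Krtdap 11.71 ± 0.53, Sbsn 11.60 ± 0.46 and Dmkn 11.14 ± 0.17. Skint10 averaged 2.02.

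Cornified envelope genes ranged widely, with 20 of 28 above the reference. The precursor Sprr1a read 12.16 ± 0.40, Cstb, a protease inhibitor, 11.95 ± 0.57, and Asprv1, the protease that processes filaggrin, 9.999, 11.41, 11.92, 11.39 and 11.89. Ivl, involucrin, read 9.03, 8.89, 8.94, 8.01 and 8.79, lowest on WT 4. Flg, filaggrin, read 7.35, 8.27, 9.42, 8.15 and 9.55, and Lor, loricrin, the main envelope protein, 6.29, 7.40, 7.59, 5.98 and 8.12. The late envelope gene Lce1f read 2.19, 4.19, 5.91, 2.78 and 5.86. These 3 genes were higher on WT 3 and WT 5 than on WT 1 and WT 4. The other probe sets of Lor had the same order. That of Lce1f did not, at 3.17, 3.14, 3.11, 2.30 and 3.67, below the reference throughout. In the whole list 12 of 28 members were highest on WT 3 and 12 on WT 5, beside 12.7% and 18.8% of all genes. Of the genes above the reference, 26.8% were highest on WT 5. Of the same 28 members 11 were lowest on WT 1, beside 27.7% of all genes and 45.3% of those above the reference. On WT 4 11 were lowest, beside 15.9% of all genes. Rptn read 4.85, 5.73, 6.80, 5.88 and 8.22. Hrnr and Sprr3 averaged 3.51 and 2.74.

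Genes of the wound response, which cultured keratinocytes also express, included 15 of 20 above the reference. Tnc, a matrix protein, read 11.20 ± 0.43 and Plau, urokinase, 10.64 ± 0.04. Ptgs2, the inducible cyclooxygenase, read 9.84, 9.94, 10.22, 10.16 and 11.09, and the chemokine Cxcl1 9.23, 10.69, 9.48, 9.96 and 11.40, both highest on WT 5. Lcn2 averaged 3.62 and Il1b 4.95.

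Enzymes of sphingosine-1-phosphate, the lipid that Sgpp1 dephosphorylates, were of middling signal. Sgpp1 read 6.25, 7.82, 8.24, 8.34 and 7.70, lowest on WT 1 and ranked 4332nd. Its 3 probe sets averaged 7.67, 7.55 and 4.20. Sgpp2, the second phosphatase of this kind, read 3.64 to 4.15, below the reference on every array. Sgpl1, the lyase that cleaves the lipid, read 6.37, 7.98, 8.18, 7.87 and 8.16. Its other probe set read 7.21, 7.51, 7.70, 7.40 and 7.82, a smaller range. Of the kinases that make the lipid, Sphk2 averaged 7.32 ± 0.30 and Sphk1 4.74 ± 0.47. Among the receptors S1pr2 read 6.34, 6.49, 7.17, 6.58 and 6.37, and S1pr3 4.59, 5.71, 6.44, 6.29 and 8.10, while S1pr1 averaged 3.17. The transporter Spns2 read 3.85, 6.51, 4.52, 3.99 and 6.17.

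Ceramide genes were more evenly present, 18 of 22 above the reference. Degs1, the desaturase of the last step of ceramide synthesis, read 10.54 ± 0.55, Asah1, a ceramidase, 10.20 ± 0.41, and Sptlc2, of the first step, 9.51 ± 0.18. Cers6 was the brightest ceramide synthase at 9.14 ± 0.20, and Cers3, which makes the very long ceramides of the barrier, read 6.74, 8.16, 8.22, 7.43 and 8.37. Degs2 read 5.14, 4.34, 5.24, 5.22 and 7.07, above the reference on WT 5 only.

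Of the calcium handling genes 10 of 19 were above the reference, near the 48.7% of all genes. The pumps Atp2b1 of the plasma membrane, Atp2a2 of the endoplasmic reticulum and Atp2c1 of the Golgi read 10.87 ± 0.22, 10.75 ± 0.51 and 8.36 ± 0.14. Casr, the calcium-sensing receptor, averaged 3.95 ± 0.30. In the S100 family of calcium-binding proteins S100a10 gave 37.9% ± 2.95 of the signal at a level of 12.25 ± 0.06, and S100a9 and S100a8, partners in inflamed skin, read 9.98 ± 0.38 and 8.34 ± 0.39. S100a4 read 7.49, 7.94, 10.31, 9.61 and 7.43. Anxa2 gave 36.1% ± 1.42 of annexin signal and Anxa1 26.9% ± 2.60, and Anxa13 averaged 2.24.

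Metabolic and protein-making lists were bright. Cytosolic ribosomal proteins had a median level of 12.08 and a median SD of 0.14, against 0.306 for all genes above the reference. Rpl37 at 1.997 was the member below it. All 20 genes of the respiratory chain and ATP synthase were above the reference and 20 of 20 were lowest on WT 1, beside 45.3% of the genes above the reference. Atp5b, the catalytic beta subunit of ATP synthase, read 9.86, 11.38, 11.45, 11.61 and 11.28. The list's profile ranged over 0.88, and over 0.12 without WT 1. Of the heat shock genes 6 of 10 were lowest on WT 1, not far from that 45.3%. Hspa1b, among the 2 of them with an SD of at least 1, read 8.31, 10.19, 10.82, 10.36 and 10.71. The range of the heat shock profile was 0.88, and 0.28 without WT 1. Glycolytic genes had 17 of 19 members above the reference, led by the glucose transporter Slc2a1 at 11.73 ± 0.38. Cholesterol synthesis had 17 of 17, led by Hmgcs1 at 11.64 ± 0.18. Pkm and Aldoa, both of glycolysis, read 11.35 ± 0.11 and 11.05 ± 0.28.

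The spread between arrays was small for most genes. Over the 8854 genes above the reference the median SD was 0.306, 1915 genes had an SD under 0.2, and 191 genes, 2.16%, had one of at least 1. Over all 18193 genes in 10 bins of mean signal the median SD was 0.218 in the dimmest bin, 0.342 in the sixth and 0.265 in the brightest. Among genes with a mean above the reference, the largest SDs after Xist belonged to Postn (3.14), Lrrc17 (2.76), Col3a1 (2.61), Serpinf1 (2.45) and Cdh11 (2.43). Of the 20 genes with the largest SD among them, 18 had WT 3 and WT 4 above the others. Kdm5d, Fosb and Eif2s3y, whose means lie below the reference, had SDs of 3.14, 2.65 and 2.46. At the other end, after Jup, stood Ube2g1, Alg2, Dusp11 and Sharpin with SDs of 0.03 to 0.04.

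**Figure D3:**
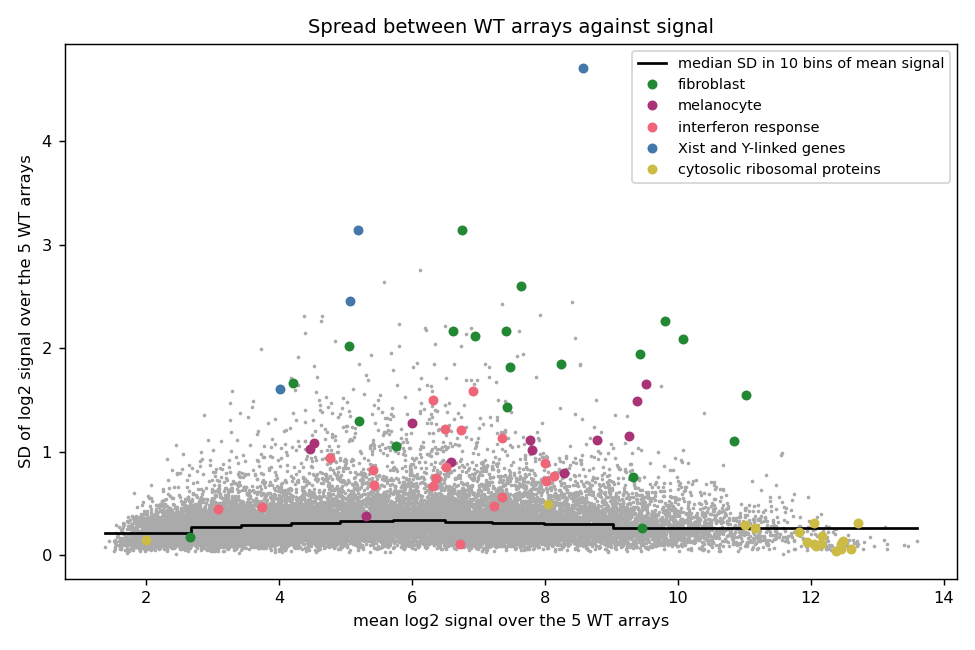
SD of the log2 signal (vertical axis) against mean log2 signal (horizontal axis) over the 5 WT arrays, 1 grey point per gene, with the median SD in 10 bins of signal as a black line and 5 gene lists in colour. Fibroblast genes reach an SD of 3.14 (Postn) and Xist one of 4.71, whereas ribosomal proteins have a median SD of 0.14.

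To see which arrays such genes set apart, the largest step between a gene's 5 ordered values was recorded where it was at least 1 log2 unit. Of 9979 genes above the reference on at least 1 array, 961 had such a step, 9.63%. In 475 of them WT 1 alone lay below it. In 150 WT 3 and WT 4 lay above it, in 117 WT 5 alone, in 48 WT 1 alone and in 21 WT 1 and WT 2. In 46 genes WT 5 alone lay below.

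**Figure D4:**
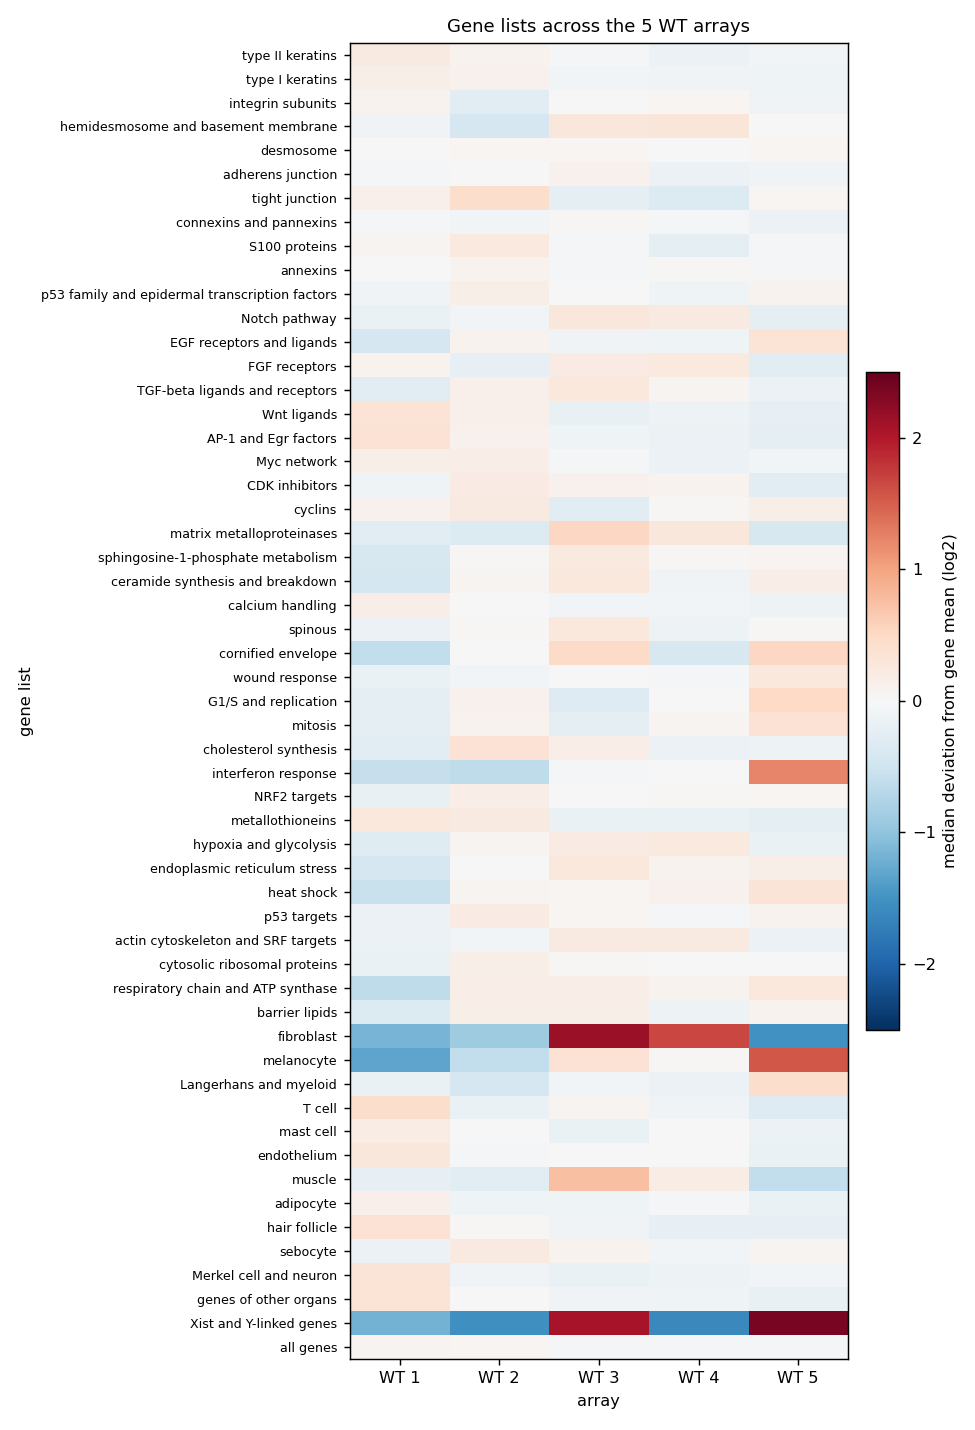
Median deviation of list members from their own mean over the 5 WT arrays (colour, log2 units) for each gene list (rows) and array (columns), with all genes in the last row. The fibroblast list reads 2.15 on WT 3 and 1.67 on WT 4, the melanocyte list 1.55 and the interferon list 1.23 on WT 5.

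Fibroblasts are the collagen-making cells of the dermis. Their list of 20 genes had 15 members above the reference, and its profile read -1.16, -0.89, 2.15, 1.67 and -1.52 on WT 1 to WT 5, a range of 3.67 that fell to 0.44 without WT 3 and WT 4. Among its members 16 of 20 had WT 3 and WT 4 above the step, beside 0.934% of all genes, and 17 of 20 had an SD of at least 1, beside 1.94% of all genes. Col1a1, the alpha 1 chain of collagen I, read 8.11, 8.80, 12.48, 12.21 and 8.76. Postn, periostin, read 4.71, 4.89, 10.22, 10.12 and 3.83. Thy1, a fibroblast surface protein, read 5.66, 6.96, 10.08, 9.25 and 5.18. On all of these WT 3 and WT 4 did not overlap the other arrays. The second probe sets of Col1a1 and Col1a2 did the same, the former at 8.47, 8.58, 11.95, 12.12 and 8.31.

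On the other arrays Col1a1 and Col1a2 stayed above the reference, at no less than 8.11 and 7.73, while Col3a1 read 5.47 to 6.20 there. Exceptions in the list were Lum, lumican, at 2.43 to 2.92 on all arrays, and Fbln1, which ran from 9.21 on WT 5 to 9.86 on WT 1. Vim, the filament of mesenchymal cells, read 9.13, 9.77, 12.63, 12.39 and 11.18. Matching values were seen for Timp1 (4.70, 6.12, 8.99, 9.17 and 5.08) and for Acta2, smooth muscle actin (10.05, 9.64, 11.81, 11.79 and 8.68). Tagln, another gene of contractile cells, read 8.75, 7.81, 10.30, 10.16 and 6.82. Basal markers did not follow, with Krt5 at 12.74 and 12.84 and Krt14 at 12.78 and 12.82 on WT 3 and WT 4. The part of fibroblast RNA in the other levels on WT 3 and WT 4 was not tested.

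Some muscle genes were also highest on WT 3 and WT 4: 3 of the 12 listed had both above the step, beside 0.934% of all genes. Myh3, embryonic myosin heavy chain, read 5.34, 5.06, 8.93, 8.84 and 4.29, and Actc1, cardiac actin of early muscle, read 3.16, 3.39, 7.39, 6.76 and 2.47. Myog, myogenin, read 2.63, 3.20, 5.53, 4.87 and 2.94, under the reference throughout. Of the 12 genes 1, Myh3, had a mean above the reference. The imprinted genes Igf2, a fetal growth factor, at 5.70, 6.64, 9.52, 9.78 and 6.24, and Meg3, at 5.14, 5.02, 7.92, 7.80 and 4.69, were likewise high on these arrays and were chosen for mention after their values were seen.

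Melanocytes are the pigment cells of skin, and 9 of 12 of their genes read above the reference. The profile of the list was -1.31, -0.61, 0.37, 0.03 and 1.55. All 12 of 12 members were highest on WT 5, beside 18.8% of all genes and 26.8% of those above the reference. On WT 1 11 were lowest, beside 27.7% and 45.3%. Tyrp1, an enzyme of melanin synthesis, read 6.996, 8.82, 10.59, 10.09 and 11.14. Dct, dopachrome tautomerase, read 7.28, 8.71, 10.004, 9.72 and 11.26, and Pmel, of the melanosome fibrils, 7.38, 8.15, 9.12, 8.93 and 10.35. All 3 were above the reference on every array, with the highest signals on WT 5. Their values on WT 1, 6.996 to 7.38, were near the mean signal of Prm1, the brightest of the genes of other organs. Mlana, another member of the list, read 7.69 on WT 1. Presence of pigment cell transcripts on WT 1 is, with such values, not settled. Sox10, the lineage factor, read 5.94, 6.00, 6.67, 6.22 and 8.12, and Kit, the receptor of stem cell factor, 3.23, 3.78, 4.91, 4.55 and 5.89. Without WT 5 the range of the profile was 1.71, against 2.86 with it.

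Of the Langerhans and myeloid genes 5 of 16 were above the reference, beside 48.7% of all genes. On WT 5 10 of 16 were highest, beside 18.8% of all genes. Lyz2, lysozyme, read 8.68, 8.59, 9.54, 8.73 and 10.50, and Tyrobp, a signalling adaptor of myeloid cells, 5.62, 6.43, 7.25, 6.97 and 9.04. Fcer1g read 6.06, 6.05, 6.24, 6.32 and 7.77, C1qb of complement 5.21, 4.61, 6.57, 5.98 and 8.23, and Csf1r, the receptor of macrophage growth factor, 4.67, 3.61, 5.16, 4.64 and 7.25. Another probe set of Csf1r read 5.02, 4.63, 4.15, 4.35 and 4.79, highest on WT 1, and its dimmest was highest on WT 5 at 4.69. Cd207, langerin, which defines Langerhans cells, read 2.90 to 3.47, below the reference on all arrays. Ptprc and Adgre1, of leukocytes and macrophages, averaged 3.06 and 2.88. Mmp12, the macrophage elastase, read 4.85, 4.99, 7.27, 6.68 and 9.36. The list's profile range was 0.85, and 0.24 without WT 5.

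Genes that respond to interferon, the antiviral cytokine, were also highest on WT 5. Their profile read -0.57, -0.63, -0.03, -0.0021 and 1.23, 18 of 19 members were highest on WT 5 beside 18.8% of all genes, and 9 had WT 5 alone above the step beside 0.863% of all genes. Without WT 5 the range was 0.58, against 1.86 with it. Rsad2, viperin, read 5.90, 5.85, 6.03, 6.01 and 8.67, and its other 2 probe sets were highest on WT 5 too, at 7.60 and 6.19. Ifit1, a sensor of viral RNA, read 4.84, 5.83, 7.69, 7.38 and 8.85, and Ifit3, its partner, 6.70, 6.28, 7.27, 7.30 and 9.24. Usp18, which limits the response, read 4.73, 5.28, 6.14, 6.92 and 8.54, and Oas1a, an RNA-sensing synthetase, 8.01, 7.51, 7.51, 8.31 and 9.36. Cxcl10, an induced chemokine, read 5.43, 6.07, 6.65, 6.17 and 7.23. The exception was Irf1, at 6.63 to 6.90 on all arrays and lowest on WT 5, and Mx1 and Mx2 averaged 3.74 and 3.08. The share of myeloid or other cells in these signals was not tested.

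Promoters of these genes are known to carry the interferon-stimulated response element, and 3 are shown because their genes were all highest on WT 5. They are the 250 bases before the annotated start from RefSeq, build GRCm38.p6, written 5' to 3' on the gene's strand, with matches to GAAANNGAAA on either strand in capitals (a match on the other strand reads TTTCNNTTTC). Ifit1 lies on the plus strand at chr19:34640639-34640888 and Ifit3 on the plus strand at chr19:34583279-34583528, and Rsad2 lies on the minus strand at chr12:26456453-26456702.
Ifit1: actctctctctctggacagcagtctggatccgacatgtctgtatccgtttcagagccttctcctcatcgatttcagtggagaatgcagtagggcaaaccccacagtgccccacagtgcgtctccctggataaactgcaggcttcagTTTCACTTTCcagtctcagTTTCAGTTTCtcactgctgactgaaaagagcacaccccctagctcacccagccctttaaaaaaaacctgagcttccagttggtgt
Ifit3: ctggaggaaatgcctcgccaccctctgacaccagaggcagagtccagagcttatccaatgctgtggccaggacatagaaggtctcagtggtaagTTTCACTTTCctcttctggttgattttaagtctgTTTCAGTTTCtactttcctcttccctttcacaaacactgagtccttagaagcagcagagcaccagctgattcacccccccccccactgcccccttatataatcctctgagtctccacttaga
Rsad2: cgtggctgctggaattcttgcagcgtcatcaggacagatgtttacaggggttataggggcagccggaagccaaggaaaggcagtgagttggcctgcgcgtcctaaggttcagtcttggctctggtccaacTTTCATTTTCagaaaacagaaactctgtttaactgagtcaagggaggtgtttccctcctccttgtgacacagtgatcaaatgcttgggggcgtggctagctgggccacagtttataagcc
The matches in Ifit1 begin 104 and 85 bases before the start, those in Ifit3 156 and 122 bases before it, and the single match in Rsad2 120 bases before it. The motif is held by 8 of the 16 listed genes with a promoter entry, 50.0%, and of all 27025 genes 936 do, 3.46%. A match describes the letters and not a bound site.

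Simple epithelial keratins and immediate early genes differed in another way. Krt8 read 7.62, 9.24, 4.37, 4.79 and 5.76 and its partner Krt18 8.77, 10.24, 6.08, 6.37 and 7.92, both highest on WT 2 and lowest on WT 3. The other 2 probe sets of Krt8 were also highest on WT 2, at 8.56 and 8.18. Krt7 read 8.22, 8.42, 6.71, 6.87 and 7.47, and Krt19 5.49, 6.40, 4.61, 4.00 and 4.89. Fosb, an immediate early transcription factor, read 9.22, 7.60, 3.58, 3.56 and 3.97, and Fos, of the same family, 8.45, 8.85, 6.26, 6.45 and 6.92. For Krt8, Fosb and Fos, WT 1 and WT 2 lay above all other arrays. Egr1, another such gene, read 10.49, 10.07, 9.77, 9.81 and 9.26, a smaller range. Within the AP-1 and Egr list 2 of 15 members had WT 1 and WT 2 above the step, beside 0.132% of all genes, and Jund and Fosl2 read 11.61 ± 0.14 and 10.87 ± 0.30. The Merkel cell and neuron list, which holds Krt8 and Krt18, had Krt20, Atoh1 and Sox2 at 3.24, 3.13 and 2.22, below the reference.

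**Figure D5:**
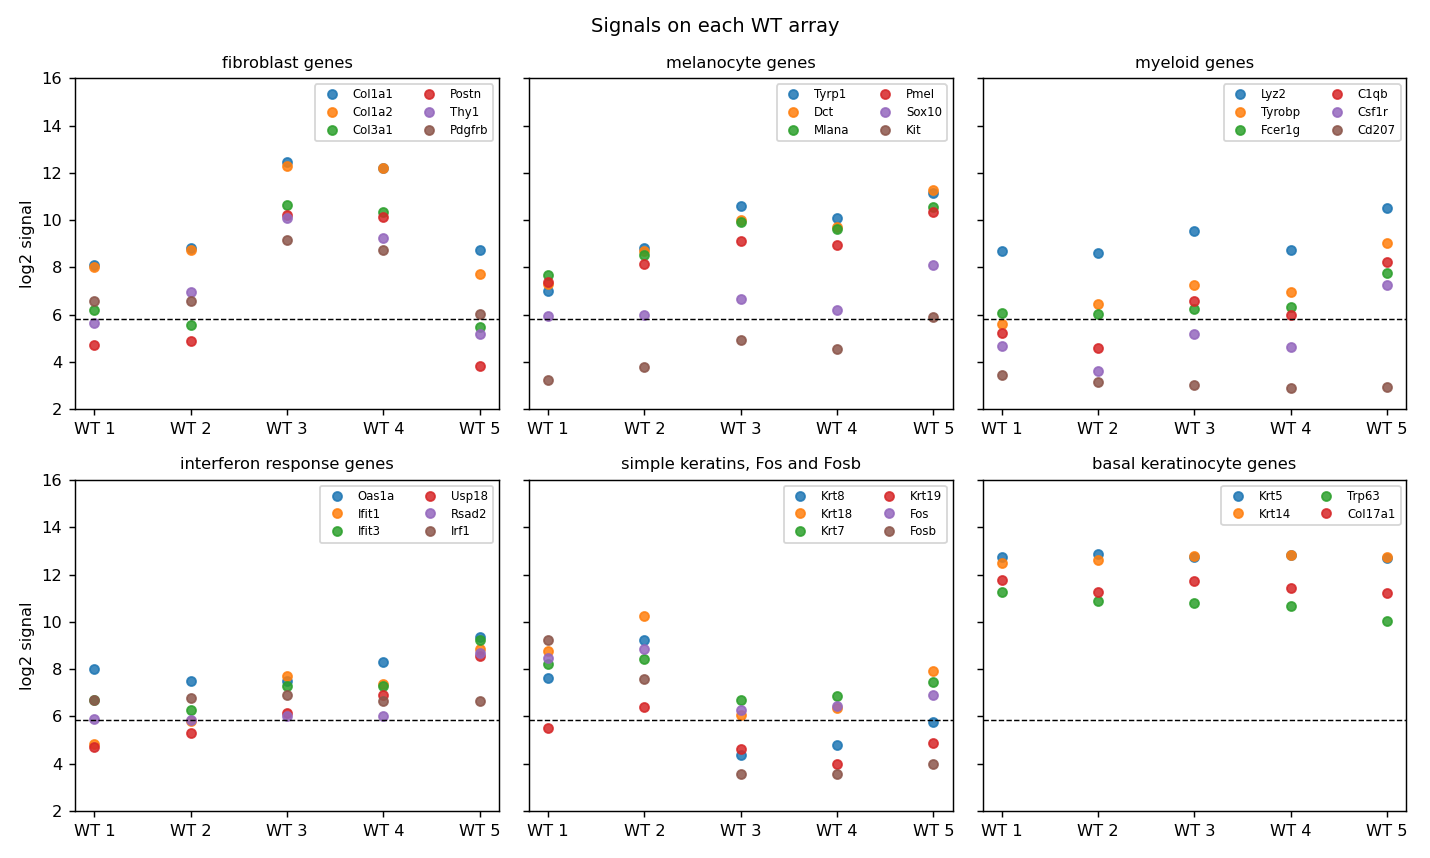
Log2 signal (vertical axis) of named genes on WT 1 to WT 5 (horizontal axis) in 6 panels, with 1 point per gene and array and the background reference of 5.83 dashed. Fibroblast genes are high on WT 3 and WT 4, melanocyte, myeloid and interferon genes except Cd207 and Irf1 on WT 5, Krt8, Fos and Fosb on WT 1 and WT 2, and Krt5 stays at 12.72 to 12.86.

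Genes of further skin cell types read mostly below the reference, which 48.7% of all genes exceeded. None of 7 mast cell genes averaged above the reference, with Tpsb2 the brightest at 5.18 ± 0.10 and Cpa3 at 2.39. Among 10 endothelial genes Egfl7 alone did, at 5.85 ± 0.23, while Pecam1 averaged 4.98 and Cdh5 3.47. In the T cell list Thy1, which fibroblasts also express, was the 1 member of 8 above the reference, and Cd3e averaged 2.27. Of the hair follicle genes 4 of 17 passed, led by Tchh at 7.80 ± 0.71, while Lgr5 and Cd34, of follicle stem cells, averaged 4.06 and 2.80. Adipocyte genes had Fabp4 as the 1 of 6 above the reference, at 5.92, 6.03, 6.06, 6.16 and 8.98, and Adipoq averaged 2.31. In the sebocyte list 3 of 8 genes exceeded the reference, beside 48.7% of all genes. These were Plin2 at 9.31 ± 0.24, Fasn at 7.88 ± 0.32 and Mgst1 at 6.68 ± 1.14, while Elovl3 and Mc5r averaged 2.35 and 2.84.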

How the data were processed

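Total RNA was extracted with Trizol, and biotin-labelled cRNA made from 6 µg of it was hybridised, per the labels' protocols. The deposited values are log2 signals, 1 per probe set and array, that the authors made with RMA (background correction, equalising of arrays, summary of probes), per the submitters' processing notes. Version, software and the arrays processed together are not given in the sources used here. RMA compresses differences near background and hides shifts common to most genes. The 5 arrays labelled wild-type and low calcium were used, and the 5 other columns were not used.

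Of 45101 probe sets 64 are controls, 34945 name 1 gene, 932 several and 9160 none in the platform annotation used here, and 34754 matched RefSeq. Each of 18193 genes was read by its brightest probe set on these arrays. Levels, ranks, SDs, shares of linear signal within families, list profiles (per array, the median deviation of members from their own mean) and steps of at least 1 log2 unit were computed with Python 3.11.15, pandas 2.3.3 and numpy 2.4.6, and tested on simulated data. With 1 group no test between groups was made, single arrays that stand apart were sought with Dixon's gap criterion, and the number of arrays limits the precision. Gene lists and members were chosen with earlier results of these data known. Named genes are the markers, Sgpp1, brightest, dimmest and most variable list members, the 25 brightest and the 20 most variable genes, and genes given as examples beside them. Alternatives were other probe set rules, array centring, other references, the list mean, and leaving out arrays.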

Additional observations from a re-analysis of the deposited data

Results flagged for a closer look

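In 54 lists, 103 genes and 10 array measures, the highest or lowest of the 5 arrays was compared with its nearest neighbour, as the gap over the whole range (Dixon's criterion). This gap stood out for 2 lists, 7 genes and 3 array measures, and chance alone gives about 1 in 20. On WT 1 it was 0.812 of the range for the respiratory chain list (low) and 0.822 for the Merkel cell and neuron list (high). The latter list, with 4 of 13 members above the reference, had a profile of 0.325 on WT 1. The genes of other organs had one of 0.334 there, so this rise was not particular to the list. Also on WT 1, always low, the gap was 0.726 for Asprv1, 0.749 for Hspa1b and 0.831 for Sgpl1. The other probe set of Sgpl1 was lowest on WT 1 too, but ran only from 7.21 to 7.82. The array measures set WT 1 apart: the SD of its values at 0.849, its lower quartile at 0.791 and its median of genes of other organs at 0.789. On WT 5 the gap was 0.937 for Rsad2 and 0.843 for Fcer1g, both high. Ivl was low on WT 4 with a gap of 0.759, and S1pr2 high on WT 3 with one of 0.716. The other probe set of S1pr2 read 5.47, 4.44, 4.68, 4.86 and 4.71, highest on WT 1 and not on WT 3.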

How the results depend on the processing

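No paired analysis was possible because 1 group was described and no groups were compared. In all, 1518 values were recomputed for 156 results, and 123 were counted as moved. For levels, percentiles and shares this meant a shift of at least their SD over the arrays. For the other results, such as counts and list ranges, it meant a change beyond a fixed ratio. Leaving out arrays could not move a gene level under its rule, since the mean then shifts by less than that SD. Of 828 values for 92 gene levels 14 moved, all with the median over probe sets, among them Krt14 to 12.33 and Trp63 to 8.51. That setting gave shares of 50.9% for Krt5 and 44.2% for Krt14, and the sum over probe sets 31.8% and 53.7%. The count of genes above the reference, 8854, was 13599 with the highest Y-linked value on arrays without Y-linked signal as reference (3.84) and 13671 with the median of other organs (3.81), so presence near the reference is not settled. Leaving out 1 array gave 8701 to 9060. Genes with an SD of at least 1 were 353 with no filter on dim genes and 171 to 255 leaving out 1 array. Of 593 values for 54 list ranges 97 moved. Leaving out 1 array gave ranges of 0.58 to 1.92 for the interferon list, 0.12 to 0.92 for the respiratory chain, 1.71 to 2.87 for melanocytes and 0.24 to 0.89 for myeloid genes, the lowest without WT 5 or, for the respiratory chain, WT 1. Myeloid members above the reference gave 1.91. Without WT 3 and WT 4, chosen after seeing the data, the fibroblast range was 0.44. The cause of these moves was not tested.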
